A study of Arabidopsis with 24 samples.

Results

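The transcriptome of dvl1-1D seedlings was compared with that of the wild type Col-0 in white light (WL), the condition in which no shade signal was given. Members were the 3 dvl1-1D and the 3 Col-0 libraries from WL, 6 of the 24 RNA-seq libraries of the series, and the genes with a mean of at least 1 FPKM over these 6, which were 19164 of the 32833 genes listed. dvl1-1D is an activation-tagged line in the Col-0 background, with a T-DNA in the promoter of RTFL18 (also called DVL1), and it is a single line with a single insertion allele, so any other difference that the line carries cannot be told apart from the overexpression. Col-0 carries no allele. Whole seedlings were 6 days old, and each group had 3 replicates. The same line and Col-0 after 6 h of low R:FR (R:FR 0.3), and bsk36 (BSK3 and BSK6 mutated) and pif47 (PIF4 and PIF7 mutated) in WL, served to show where a WL difference recurred or was shared, and all 24 libraries entered the estimate of the spread behind the WL p-values. The labels do not say whether the replicates were separate cultures, so the p-values measure the spread between these samples.

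RTFL/DVL genes encode small peptides that are not secreted and that act in the cells making them, and their overexpression shortens and rounds plant organs. RTFL18 was studied here as a partner of BSK3 and BSK6, receptor-like cytoplasmic kinases that pass the brassinosteroid (BR) signal from the receptor BRI1 toward the GSK3-like kinase BIN2 and the transcription factors BZR1 and BES1. In WL the phytochrome-interacting factors (PIFs) are held in check by phytochrome B, and the shade marker genes are at their low, unshaded level.

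Values are FPKM, in which fragment numbers are divided by transcript length and by library size. The FPKM of these 6 libraries summed to between 786562.69 and 801109.22, and their depth, known only relative to one another from the steps between low values of 69 genes, was 0.865 to 1 for dvl1-1D and 0.94 to 0.991 for Col-0. The number of reads is unknown, so no counting error is given. Libraries correlated at r = 0.963 to 0.972 within dvl1-1D, 0.963 to 0.967 within Col-0 and 0.955 to 0.961 between them, on log2(FPKM + 0.1). As a check of the whole-seedling label, the 14 root markers were all tested and summed to 98.31 to 113.39 FPKM in dvl1-1D and 81.08 to 109.93 FPKM in Col-0, and the 22 light-harvesting and RBCS genes summed to 89106.2 to 90120.6 FPKM in dvl1-1D and 87064.6 to 92862.2 FPKM in Col-0. None of the 8 seed storage and late embryo genes reached the filter. One set of libraries stood apart on a stretch of chromosome 4, and this bears on the lower genes: there the 6 Col-0 libraries were higher than those of all 3 mutants, as given with the lower genes.

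RTFL18 itself (AT5G16023, chromosome 5) was listed at 617.6, 516.81 and 528.21 FPKM in dvl1-1D and at 0.46, 0.7 and 0 FPKM in Col-0. Every dvl1-1D library lay far above every Col-0 library. The log2 fold change of RTFL18 was 10.60 (SE 0.53, adjusted p = 4.63e-11), a size that rests on the pseudocount because Col-0 was near 0. The transcript ranked between 156 and 186 among all genes in dvl1-1D. In low R:FR it stood at 975.03, 964.56 and 788.19 FPKM in dvl1-1D and at 12.91, 12.84 and 11.11 FPKM in Col-0. Its log2 fold change there, 6.19, was smaller than in WL (interaction adjusted p = 0.00489). The bsk36 and pif47 libraries held 0.28 to 0.55 and 0.3 to 1.51 FPKM in WL, like Col-0.

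The other members of the family did not follow it. Of the 24 genes annotated as RTFL, DVL or ROT4, 12 passed the filter, and of these RTFL18 alone changed, against 2.88% of all tested genes that were higher and 2.18% that were lower in dvl1-1D. RTFL16 had 55.36, 50.71 and 48.15 FPKM in dvl1-1D and 54.14, 53.5 and 62.45 FPKM in Col-0. RTFL17 had 25.96, 27.63 and 26.99 FPKM in dvl1-1D and 26.29, 27.84 and 31.63 FPKM in Col-0. These are the most abundant family members in the wild type, and their libraries overlapped between genotypes. The remaining 9 tested members lay between 0.48 and 5.34 FPKM, and the 12 that were not tested included ROT4, the founding member, at 0.28 FPKM or less in dvl1-1D and 0.64 FPKM or less in Col-0. RTFL1, also below the filter, was called lower where weaker filters let it in, and was listed at 0 in dvl1-1D and at 0.26, 0.23 and 0.34 FPKM in Col-0. RTFL18 made up 83.4% to 85.4% of the summed FPKM of the family in dvl1-1D and 0.678% or less in Col-0.

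**Figure D1:**
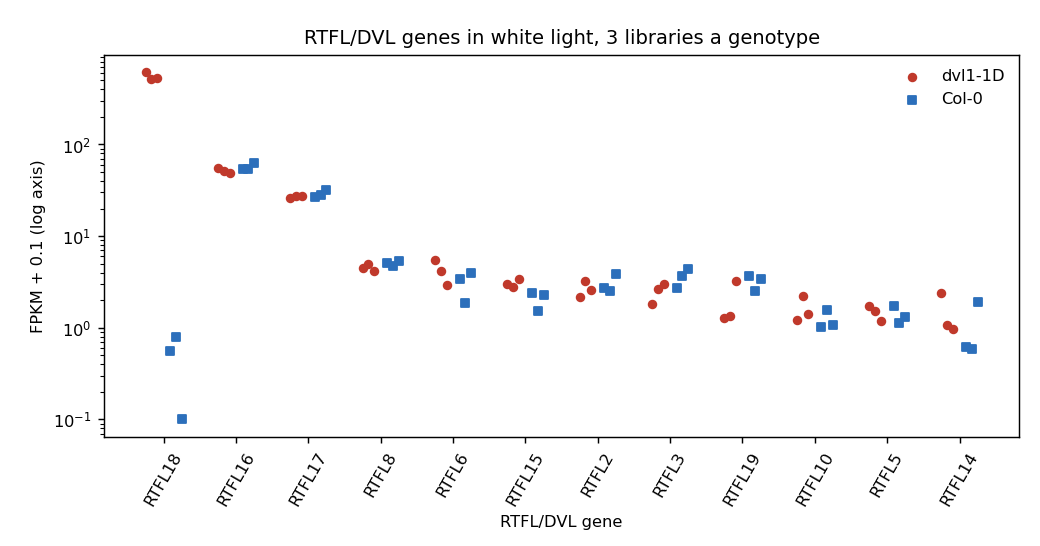
FPKM + 0.1 on a log axis for the 12 tested RTFL/DVL genes in WL, with a red circle for each dvl1-1D library and a blue square for each Col-0 library. RTFL18 sits at 516.81 FPKM or more in dvl1-1D and at or below 0.7 FPKM in Col-0, and for the 11 other members no difference passed the test.

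The genes around RTFL18 showed no called difference in WL. Of the 5 annotated genes on either side of RTFL18, 7 were tested and none changed in WL. AT5G16030, the nearest tested gene after RTFL18, had 129.02, 127.39 and 123.97 FPKM in dvl1-1D and 92.61, 112.02 and 105.05 FPKM in Col-0, groups that did not overlap (log2 fold change 0.30, adjusted p = 0.053). The gene directly before RTFL18, GEX3 (AT5G16020, a membrane protein known from gametes), was below the filter and was therefore not tested. It stood at 0.79, 0.61 and 0.5 FPKM in dvl1-1D and 0, 0 and 0.05 FPKM in Col-0, and in low R:FR at 3.31, 2.39 and 1.88 FPKM in dvl1-1D and 0, 0 and 0.02 FPKM in Col-0. In both light conditions every dvl1-1D library was above every Col-0 library, at levels far below those of RTFL18. In low R:FR 6 of the 7 tested neighbours were higher in dvl1-1D, against 6.15% of all tested genes, and GRF5 did not pass. AT5G16030 had the largest of these differences (log2 fold change 0.69, adjusted p = 4.72e-05), and AT5G16040, AT5G02515, AT5G16010, NIK1 and AT5G15980 were higher by 0.48, 0.46, 0.42, 0.35 and 0.28. The interaction passed for none of the 7, so these differences are not shown to differ between the light conditions.

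Across all genes, 552 were higher (2.88%) and 418 lower (2.18%) in dvl1-1D at an adjusted p under 0.05, and 3976 had an unadjusted p under 0.05. Most of these differences were small. The absolute log2 fold change was under 0.5 for 61.5% of the 970, and only 51 higher genes (0.266% of those tested) and 62 lower genes (0.324%) reached 2-fold. The balance of higher and lower genes turned with the scaling and with single libraries: 56.9% of the changed genes were higher with FPKM as deposited, 41.2% with median-ratio scaling, 40.1% with the 6 libraries alone and 43.3% without Col-0 replicate 1, and the median log2 fold change of all genes was 0.0281 as deposited and −0.00277 after that scaling. The counts also depended on single libraries. Higher genes numbered 235 without dvl1-1D replicate 2, 283 without dvl1-1D replicate 3 and 253 without Col-0 replicate 1. Lower genes numbered 207 and 233 without dvl1-1D replicates 2 and 3, and 266 and 243 without Col-0 replicates 2 and 3. Fitted to the 6 libraries alone, with no other group to estimate the spread, the test called 138 higher and 206 lower genes.

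Because Col-0 is the common reference, each 2-fold gene was also placed among the 12 WL libraries of the 4 genotypes. For 28 of the 51 higher genes (54.9%) the 3 dvl1-1D libraries lay above all 9 of the others, and for 15 (29.4%) the 3 Col-0 libraries lay below all 9 of the mutants. Among the 62 lower genes, dvl1-1D lay below all others for 36 (58.1%) and Col-0 above all mutants for 22 (35.5%). A gene could meet both conditions, and 15 higher and 14 lower genes met neither. Over all tested genes the 3 dvl1-1D libraries lay above the 9 others for 2.71% and below them for 3.41%, and the 3 Col-0 libraries lay below the mutants for 3.59% and above them for 1.37%. These positions are partly fixed by the selection on dvl1-1D against Col-0, and are given as a description.

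A flowering repressor and genes linked with it were among the 2-fold genes. FLC, the MADS-box protein that represses flowering until vernalization, was listed at 67.31, 61.2 and 61.48 FPKM in dvl1-1D and at 16.39, 18.15 and 16.45 FPKM in Col-0. It was 3.71-fold higher (log2 fold change 1.89, SE 0.08, adjusted p = 2.42e-11), and it held 67.2, 66.6 and 66.93 FPKM in dvl1-1D and 19.24, 17.92 and 17.89 FPKM in Col-0 in low R:FR. The bsk36 and pif47 libraries lay between 12.91 and 17.93 FPKM in WL, so the rise was seen in dvl1-1D and in neither of the other mutants.

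SOC1, a flowering activator that FLC is known to repress, had 1.92, 2.57 and 2.46 FPKM in dvl1-1D and 6.96, 8.29 and 8.59 FPKM in Col-0 (log2 fold change −1.74, SE 0.15, adjusted p = 3.55e-07). FT, the mobile flowering signal and another known FLC target, had 1.06, 0.87 and 2.3 FPKM in dvl1-1D and 3.21, 3.97 and 4.15 FPKM in Col-0 (log2 fold change −1.47, SE 0.27, adjusted p = 0.00323). Both were lower in every dvl1-1D library than in any Col-0 library, but only SOC1 was also below pif47, which held 4.96 to 6.44 FPKM of SOC1 and 1.64 to 1.98 FPKM of FT. Both genes were lower in dvl1-1D in low R:FR too, with log2 fold changes of −2.03 and −1.75.

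The FLC relatives MAF4 and MAF5, clustered genes that also encode MADS-box floral repressors, went the other way from FLC. MAF4 had 1.18, 1.18 and 1.38 FPKM in dvl1-1D and 5.08, 4.53 and 5.54 FPKM in Col-0 (log2 fold change −1.93, SE 0.20). MAF5 had 0.44, 0.71 and 0.72 FPKM in dvl1-1D and 5.48, 2.18 and 2.59 FPKM in Col-0 (log2 fold change −2.19, SE 0.26). For both genes the dvl1-1D libraries lay below those of all 3 other genotypes. For MAF4, bsk36 and pif47 lay above Col-0, at 8.22 to 10.34 and 7.37 to 11.18 FPKM. For MAF5, bsk36 lay above Col-0, at 6.8 to 7.86 FPKM, and pif47, at 5.11 to 7.48 FPKM, overlapped it. FLM (also MAF1) was lower by a smaller amount, at 21.92, 20.28 and 23.54 FPKM in dvl1-1D and 26.09, 30.4 and 31.94 FPKM in Col-0 (adjusted p = 0.00689). MAF2 and MAF3, in the same cluster as MAF4 and MAF5, did not pass the test (adjusted p = 0.613 and 0.83). Of 33 flowering-time genes, a list put together after FLC had been seen, 27 were tested. Among them 2 were higher (FLC and CDF3), 5 were lower and 20 did not pass, against 2.88% and 2.18% of all tested genes. The CDF3 call was lost without dvl1-1D replicate 2 or 3 or Col-0 replicate 1 or 2, and the calls of FT and FLM with the 6 libraries alone. CO and SVP, which act beside or upstream of FT, were among those that did not pass, and the median of the list, 0.00482, lay near that of all genes, 0.0281.

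**Figure D2:**
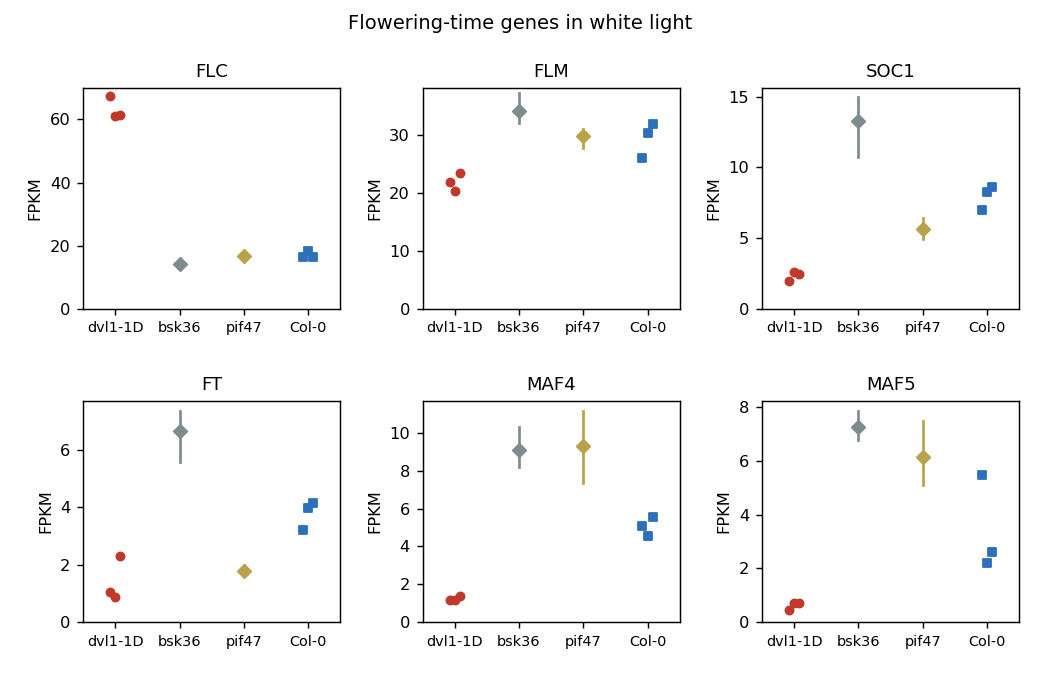
FPKM in WL of 6 flowering-time genes, with circles for the 3 dvl1-1D libraries, diamonds for the means of bsk36 and pif47 with lines over the range of their 3 libraries, and squares for the 3 Col-0 libraries. The dvl1-1D points of FLC lie above 61 FPKM, far over the other genotypes, and those of SOC1, MAF4 and MAF5 lie below all other libraries.

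Other strong rises came from genes of little known function and from genes of the cell wall. AT1G27565, a short protein-coding gene without a described role, was listed at 11.08, 11.2 and 12.67 FPKM in dvl1-1D and at 0 in every Col-0 library (adjusted p = 2.08e-07), and at 8.56, 13.38 and 10.91 FPKM in dvl1-1D and 0, 0.17 and 0 FPKM in Col-0 in low R:FR. It was at 0.3 FPKM or less in bsk36 and pif47, so it marked dvl1-1D in all 6 of its libraries. In WL AT1G75945 was listed at 4.67, 3.69 and 3.58 FPKM in dvl1-1D and at 0 in Col-0, but its highest level was in bsk36, at 24.17 to 26.7 FPKM. The noncoding RNA AT4G04223 averaged 39.4 ± 4.6 FPKM in dvl1-1D and 6 ± 2.5 FPKM in Col-0 in WL (SD, n = 3), with 3.61 FPKM or less in the other mutants in WL. The noncoding RNAs AT3G02095, AT5G00990 and AT2G07042 were also called higher. For AT5G00990 the call was lost without any of dvl1-1D replicates 2 and 3 or Col-0 replicates 1 and 3.

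PEX3 (AT2G15880), an extensin with leucine-rich repeats known from pollen, averaged 17.6 ± 2.9 FPKM in dvl1-1D and 2.51 ± 0.35 FPKM in Col-0 (log2 fold change 2.76, SE 0.28). SRF4, a receptor-like kinase of the STRUBBELIG family linked with leaf size, averaged 8.65 ± 0.51 FPKM in dvl1-1D and 1.94 ± 0.31 FPKM in Col-0 (log2 fold change 2.11, SE 0.17). PER65, a secreted peroxidase, averaged 2.46 ± 0.4 FPKM in dvl1-1D and 0.627 ± 0.29 FPKM in Col-0. In each of these genes the 3 dvl1-1D libraries lay above the 9 others. For PEX3 and SRF4 the effect was smaller in low R:FR, with log2 fold changes of 0.97 and 0.90 and interaction adjusted p = 0.0224 and 0.0138. Outside the rule for named genes, and chosen after their values were seen, HSP70 (AT3G12580, a heat-inducible chaperone) averaged 36.5 ± 6.1 FPKM in dvl1-1D and 14.3 ± 0.83 FPKM in Col-0, and the pectin methylesterase inhibitor gene PMEI12 averaged 10.5 ± 1.5 FPKM in dvl1-1D and 4.09 ± 0.34 FPKM in Col-0. Both were also higher in dvl1-1D than in Col-0 in low R:FR, with adjusted p = 9.17e-07 and 0.000694. For HSP70 the 3 dvl1-1D libraries lay above the 9 others in WL. For PMEI12 it was Col-0 that lay below all 9 mutant libraries, with bsk36 at 6.57 to 9.89 and pif47 at 6.73 to 8 FPKM. In low R:FR PMEI12 averaged 18.2 FPKM in pif47, above the 14.7 FPKM of dvl1-1D.

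XTH enzymes cut and rejoin the xyloglucan chains of the wall and were followed as a family. Of 28 tested XTH genes, 3 were higher and 2 were lower, against 2.88% and 2.18% of all tested genes, and 23 did not pass. XTH24 had 137.53, 139.41 and 144.21 FPKM in dvl1-1D and 35.23, 55.73 and 60.07 FPKM in Col-0 (log2 fold change 1.52, SE 0.20, adjusted p = 0.000122). TCH4 (also XTH22), a touch-induced member, had 23.85, 19.11 and 20.46 FPKM in dvl1-1D and 11.71, 11.35 and 14.08 FPKM in Col-0. Both were raised above bsk36 and pif47 as well. In low R:FR TCH4 was lower in dvl1-1D (log2 fold change −0.74, adjusted p = 0.00551), so its direction turned with the light, whereas XTH24 did not differ beyond its error (log2 fold change 0.21, adjusted p = 0.569). XTH26 was higher by 0.90 on the log2 scale, a call lost without any of the 3 dvl1-1D replicates or Col-0 replicate 1 or 2. XTH8 and XTH7 fell by 0.47 and 0.28. The call of XTH7 was lost without dvl1-1D replicate 2 or 3 or Col-0 replicate 2 or 3, and XTH7 was higher in dvl1-1D in low R:FR by 0.34. Of 18 expansin genes 1 was lower (EXP3), of 52 SAUR genes 1 was lower (SAUR72), and none of 7 GH3 genes passed. The EXP3 call was lost without dvl1-1D replicate 3, and that of SAUR72 without dvl1-1D replicate 1 or 3 or Col-0 replicate 2 or 3.

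AT5G58480 and RRN5 were listed at 0 in every dvl1-1D library in WL, and they differed in what the other mutants showed. AT5G58480, a glucan endo-1,3-beta-glucosidase gene, had 3.94, 4.13 and 3.7 FPKM in Col-0, and bsk36 and pif47 had 3.89 to 6.48 FPKM. In low R:FR it was again listed at 0 in all 3 dvl1-1D libraries and at 1.08, 3.48 and 3.6 FPKM in Col-0, so the 0 was seen in all 6 dvl1-1D libraries and in no WL library of another genotype. RRN5, the mitochondrial 5S ribosomal RNA, was at 27.73, 29.51 and 69.53 FPKM in Col-0, but was at 0 in all WL libraries of bsk36 and pif47 too, and 1 dvl1-1D library in low R:FR held 26.23 FPKM. For RRN5, Col-0 was the genotype that stood apart. The libraries were made from poly(A) RNA, and how well they measure this ribosomal RNA was not tested.

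Further falls were found among stress and defence genes. PCC1, a small membrane protein gene known from pathogen response, had 1.11, 0.21 and 0.16 FPKM in dvl1-1D and 4.39, 3.62 and 6.92 FPKM in Col-0 (adjusted p = 0.0086). AT3G22235, which encodes another cysteine-rich transmembrane protein, averaged 4.32 ± 1.6 FPKM in dvl1-1D and 15.6 ± 0.55 FPKM in Col-0. Neither was lower in dvl1-1D in low R:FR, and the interaction passed for both (adjusted p = 0.0175 and 0.0259). ICS1, which makes the precursor of salicylic acid, had 3.99, 3.9 and 4.36 FPKM in dvl1-1D and 5.24, 6.28 and 6.68 FPKM in Col-0. Of 11 tested salicylic acid and defence genes, PCC1 and ICS1 were lower (against 2.18% of all tested genes), none was higher and 9 did not pass, and the ICS1 call was lost with the 6 libraries alone. AOS, an early enzyme of jasmonate synthesis, had 59.06, 50.84 and 46 FPKM in dvl1-1D and 86.04, 80.21 and 75.27 FPKM in Col-0 (adjusted p = 2.58e-05). It was the only one of 18 jasmonate genes to pass, where 2.18% of all tested genes were lower. The median of the jasmonate list was −0.01, with 10 genes fitted below 0 and 8 above. In low R:FR 2 jasmonate genes were higher and none was lower, where 6.15% of all tested genes were higher and 4.11% lower. The cold and drought genes RD29A and KIN1 were the 2 of 8 on their list that were lower, where 2.18% of all tested genes were, with log2 fold changes of −0.73 and −1.15. Both calls were lost without dvl1-1D replicate 2 or Col-0 replicate 1, and that of KIN1 also without dvl1-1D replicate 1 or 3.

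CYP71A12, a camalexin pathway gene, was listed at 0.12, 0 and 0.19 FPKM in dvl1-1D and at 3.11, 0.86 and 5.41 FPKM in Col-0. The Col-0 libraries were spread over a wide range, and the call (adjusted p = 0.0491) was lost without any of the 3 dvl1-1D replicates, without Col-0 replicate 1 or 3, with pseudocounts of 0.5 and 1, without the filter and without the trend. The antisense RNA AT1G06002, listed at 0 in dvl1-1D and at 1.9, 1.64 and 2.71 FPKM in Col-0, lost its call without any 1 of the 6 libraries, without the filter and without the trend. It overlaps another gene, and reads of the 2 cannot be told apart without strand. The calls of AT5G36920, AT5G38020, AT4G14060 and AT5G10210 were kept with each library left out, and that of AT4G14060 was lost with the 6 libraries alone. AT5G36920, a transmembrane protein gene, averaged 0.15 ± 0.16 FPKM in dvl1-1D and 3.02 ± 0.81 FPKM in Col-0, and AT5G38020 averaged 2.7 ± 1.1 FPKM in dvl1-1D and 11.9 ± 3.5 FPKM in Col-0. AT4G14060 averaged 1.54 ± 0.88 FPKM in dvl1-1D and 7.16 ± 2.5 FPKM in Col-0, and AT5G10210 averaged 1.62 ± 0.81 FPKM in dvl1-1D and 5.54 ± 0.52 FPKM in Col-0.

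A run of neighbouring genes on chromosome 4 accounted for 9 of the 62 lower 2-fold genes, 14.5%. It was noticed when the tested genes were put in chromosomal order. From AT4G35250 to AT4G35460 there are 23 annotated genes, of which 19 were tested. In WL 17 of these were lower in dvl1-1D and none was higher, where 2.18% of all tested genes were lower. The median log2 fold change of the run was −1.03, or 0.491-fold, and among the 17 it ranged from −1.37 to −0.56. The 16 tested genes next to the run, 8 on each side, held no changed gene and had a median of 0.0304. Medians over 15 consecutive tested genes stayed between −0.25 and 0.28 on chromosomes 1, 2, 3 and 5. The run includes IDH1, a subunit of mitochondrial isocitrate dehydrogenase, at 47.09, 48.53 and 50.84 FPKM in dvl1-1D and 108.92, 108.69 and 113.26 FPKM in Col-0. CPK5, a calcium-dependent kinase of immune signalling, had 32.82, 34.13 and 33.44 FPKM in dvl1-1D and 73.28, 76.16 and 78.92 FPKM in Col-0. XCP1, a xylem protease and a vascular marker, had 21.78, 24.33 and 28.01 FPKM in dvl1-1D and 45.93, 61.33 and 58.87 FPKM in Col-0.

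The same level was found in the other mutants. Relative to the mean of Col-0 in the same light, the median over the run was 0.494 to 0.53 in the 6 dvl1-1D libraries, 0.529 to 0.587 in the 6 bsk36 libraries and 0.51 to 0.546 in the 6 pif47 libraries, and 0.922 to 1.04 in the 6 Col-0 libraries themselves. For 15 of the 19 genes all 6 Col-0 libraries lay above all 18 mutant libraries, a pattern that only 17 of the 19164 tested genes showed. Low R:FR gave the same picture, with 17 of 19 genes lower in dvl1-1D and a median of −0.93. On this stretch Col-0 stood apart from all 3 mutants, so the lower level was not particular to dvl1-1D. Its origin was not tested. With the genes of the run left out of the fit, 941 genes changed in WL and 52 were lower by 2-fold. Of the 53 genes lower by 2-fold in the full fit that lie outside the run, dvl1-1D lay below the 9 other WL libraries for 33 (62.3%), and Col-0 lay above the 9 mutant libraries for 13 (24.5%).

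**Figure D3:**
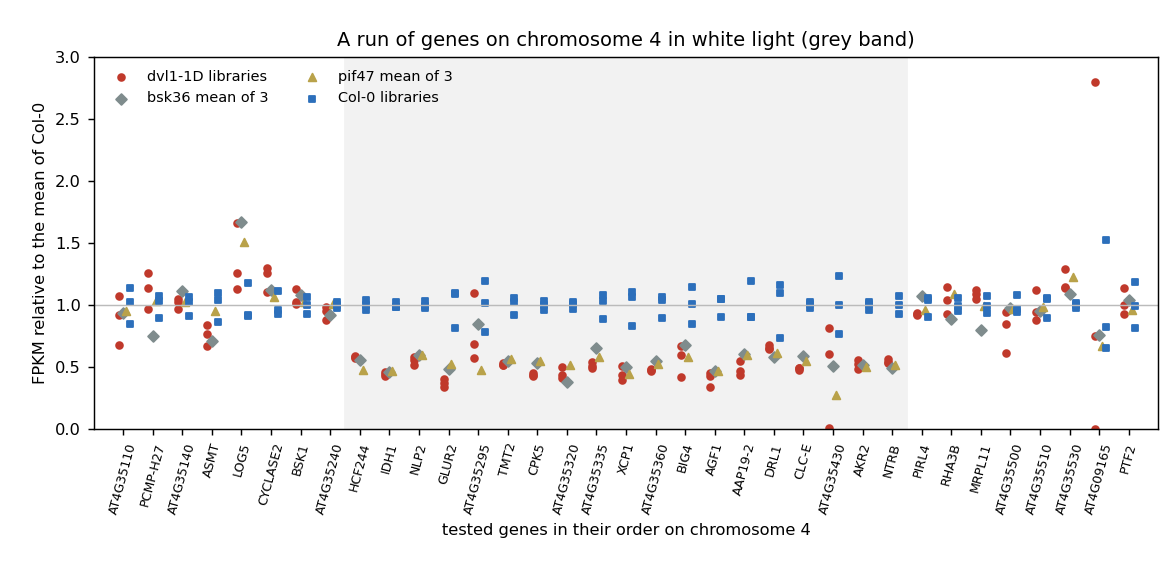
FPKM relative to the mean of the 3 Col-0 libraries for the 19 tested genes of the run (grey band) and 8 tested genes on either side, in chromosomal order in WL. Red circles are dvl1-1D libraries, diamonds and triangles the means of bsk36 and pif47, and blue squares Col-0 libraries. Inside the band the 3 mutants lie together near 0.5 for most genes, with wide scatter for AT4G35295 and AT4G35430, and outside it the genotypes scatter around 1.

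In the BR pathway, in which RTFL18 was placed, no transcript passed the test in WL. None of 27 tested genes of BR signalling, from receptors to transcription factors, passed in either direction, and their log2 fold changes ranged from −0.19 to 0.19. At an adjusted p under 0.05, 5.06% of all tested genes changed. BRI1 had 35.07, 41.9 and 40.7 FPKM in dvl1-1D and 36.33, 36.16 and 37.86 FPKM in Col-0. BSK3 had 20.96, 22.97 and 20.55 FPKM in dvl1-1D and 22.39, 22.32 and 23.75 FPKM in Col-0, and BSK6 had 10.45, 9.89 and 9.96 FPKM in dvl1-1D and 9.49, 9.71 and 10.08 FPKM in Col-0. The libraries of all 3 genes overlapped between genotypes. Of the 15 genes of BR synthesis and inactivation none passed. The synthesis genes CPD and DWF4, which BR is known to repress, had the lowest adjusted p of the list and opposite signs. CPD was at 60.01, 59.31 and 59.63 FPKM in dvl1-1D and 47.27, 49.92 and 50.88 FPKM in Col-0 (adjusted p = 0.0586), and DWF4 was at 9.02, 8.66 and 8.77 FPKM in dvl1-1D and 9.92, 12.1 and 10.25 FPKM in Col-0 (adjusted p = 0.0718). The CPD libraries did not overlap between genotypes, nor did those of DWF4, which was called lower with median-ratio scaling. BES1 was called lower without Col-0 replicate 1. A p above the threshold does not show that the levels were equal. None of 16 growth bHLH genes, of 22 Aux/IAA genes, of 9 type-A ARR genes, of 13 flavonoid genes or of 21 leaf shape and cell division genes passed, and of 14 gibberellin genes only RGA, a DELLA repressor of growth, was higher, by 0.16 on the log2 scale, a call lost without any 1 of the 6 libraries and with median-ratio scaling. The cell cycle kinase gene CDKB2;1, on the leaf shape and cell division list, was called lower without dvl1-1D replicate 3 or with median-ratio scaling.

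Of 22 tested PIF genes and shade markers, 2 were higher (against 2.88% of all tested genes) and none was lower. HFR1, an atypical bHLH that binds PIFs and restrains the shade response, had 5.96, 6 and 6.26 FPKM in dvl1-1D and 3.06, 4.68 and 3.38 FPKM in Col-0 (log2 fold change 0.72, SE 0.15, adjusted p = 0.00926). This call was lost without Col-0 replicate 1 and in the fit of the 6 libraries alone, and bsk36 held more HFR1 than dvl1-1D, 6.59 to 10.93 FPKM. PIF8 was higher by 0.24, and its call was lost without Col-0 replicate 1 or 2, without dvl1-1D replicate 1 or 2, with the 6 libraries alone and with median-ratio scaling. PIF4 had 5.93, 7.42 and 7.85 FPKM in dvl1-1D and 7.46, 7.21 and 6.68 FPKM in Col-0, and PIF7 had 14.66, 12.24 and 11.41 FPKM in dvl1-1D and 9.83, 13.45 and 11.36 FPKM in Col-0. The libraries of both genes overlapped.

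In the fit of all 24 libraries, circadian clock genes were the list with the largest share of calls. With the 6 libraries alone this order did not hold, as the counts given below for the clock and glucosinolate lists show. All 20 were tested, 8 were higher (40% of the list, against 2.88% of all tested genes) and 1 was lower. PRR9, a daytime repressor of the morning genes CCA1 and LHY, had 6.54, 6.85 and 7.53 FPKM in dvl1-1D and 3.45, 5.01 and 3.37 FPKM in Col-0 (log2 fold change 0.83, SE 0.15, adjusted p = 0.00254). LNK2, a coactivator that works with RVE proteins, had 107.34, 114.01 and 115.2 FPKM in dvl1-1D and 47.38, 88.64 and 81.27 FPKM in Col-0 (log2 fold change 0.68). LNK1 had 17.41, 19.23 and 18.5 FPKM in dvl1-1D and 10.86, 14.34 and 13.71 FPKM in Col-0 (log2 fold change 0.51). In these genes the groups did not overlap, as was the case for 14.5% of all tested genes with dvl1-1D above. The bsk36 libraries overlapped those of dvl1-1D for PRR9 and LNK1 and lay above them for LNK2, at 151.13 to 158.33 FPKM. LNK3, PRR7, RVE4, GI and TOC1 were higher by 0.20 to 0.54, and LUX, part of the evening complex, fell by 0.30, a call lost without dvl1-1D replicate 3 or Col-0 replicate 1.

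Col-0 replicate 1 was the lowest library for many of these genes and moved the count. Without it 2 clock genes were higher, and without dvl1-1D replicate 2 or 3 also 2, while 4 were higher without dvl1-1D replicate 1 or Col-0 replicate 3, and 1 in the fit of the 6 libraries alone. The median of the list, 0.20 with all libraries, stayed between 0.16 and 0.23 when 1 library was left out. CCA1 and LHY did not pass (adjusted p = 0.5 and 0.141). Low R:FR reversed the balance of the list, with 6 clock genes lower and 2 higher in dvl1-1D and a median of −0.21. Over all tested genes 4.11% were lower and 6.15% higher there. The interaction passed for 9 of 20, against 2.69% of all tested genes. It uses the same WL contrast, and these 9 calls were not checked with a library left out. For CCA1, the log2 fold change was 0.15 in WL and −0.92 in low R:FR (interaction adjusted p = 0.0024), and for LNK2 it was 0.68 and −0.64 (interaction adjusted p = 0.00544). The time of harvest within the day is not in the labels, and a difference in it was not tested.

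**Figure D4:**
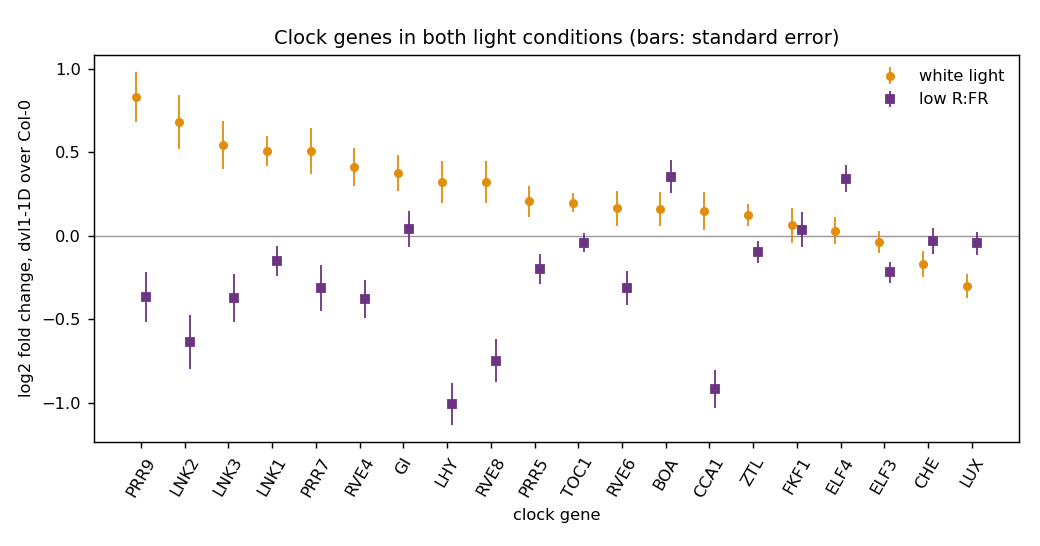
Log2 fold change of dvl1-1D over Col-0 for 20 clock genes, with circles for WL and squares for low R:FR and bars for the standard error of the fit. In WL 17 genes lie above 0, with PRR9 highest at 0.83, and in low R:FR CCA1 lies at −0.92.

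Glucosinolate, iron and sulfur genes held few single calls. Of 14 glucosinolate genes 3 were lower (against 2.18% of all tested genes) and none higher, and the list had a median of −0.55, against 0.0281 for all genes, with 13 of the 14 below 0. FMOGS-OX1, which oxidises the side chain of aliphatic glucosinolates, had 3.1, 2.23 and 3.17 FPKM in dvl1-1D and 7.35, 7.65 and 5.66 FPKM in Col-0 (log2 fold change −1.26, SE 0.24). SUR1, a core enzyme, had 43.01, 42.15 and 41.26 FPKM in dvl1-1D and 56.61, 59.12 and 55.61 FPKM in Col-0. CYP79B3, of the indolic branch, was the third. All 3 lay below Col-0 without overlap, as did 9.92% of all tested genes. BCAT4, the entry enzyme of the methionine-derived branch, had 29.04, 28.42 and 26.69 FPKM in dvl1-1D and 60.35, 66.82 and 48.9 FPKM in Col-0 without passing (adjusted p = 0.0758). The count of 3 was 1 without dvl1-1D replicate 2 or 3 or Col-0 replicate 2, and 9 in the fit of the 6 libraries alone. None of the list was lower in low R:FR, and the median there was 0.02.

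Of 17 iron deficiency genes 2 were lower (against 2.18% of all tested genes), with a list median of −0.41. The list holds ferritin genes beside uptake genes, so its median is not read as a direction of the iron response. OPT3, a phloem transporter that shapes iron signalling, had 71.42, 60.13 and 56.19 FPKM in dvl1-1D and 81.39, 83.49 and 84.15 FPKM in Col-0. NAS4, a nicotianamine synthase, had 22.58, 22 and 19.11 FPKM in dvl1-1D and 34.36, 35.97 and 30.78 FPKM in Col-0. The genes best known for iron uptake, IRT1 and FRO2, did not pass. Without dvl1-1D replicate 2 or 3 neither gene of the list passed. Of 13 tested sulfur deficiency genes APR2 alone was lower, a call kept only without dvl1-1D replicate 1 when 1 library was left out. The median was −0.47 and 12 of 13 were below 0. In low R:FR, by contrast, 7 of the 13 were higher in dvl1-1D, against 6.15% of all tested genes, with a median of 0.66. The interaction passed for 8, against 2.69% of all tested genes.

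SEN1 (AT4G35770), a gene induced by darkness and low sugar, was higher in dvl1-1D. It was the only one of 12 sugar starvation genes to pass, where 2.88% of all tested genes were higher. It had 52.42, 34.1 and 34.47 FPKM in dvl1-1D and 10.21, 11.85 and 13.08 FPKM in Col-0 (log2 fold change 1.75, SE 0.40, adjusted p = 0.0132), and bsk36 was as high, at 31.19 to 69.29 FPKM. The call was lost without dvl1-1D replicate 1 or Col-0 replicate 1. Under shade the log2 fold change of SEN1 was −0.75 (adjusted p = 0.241), and the difference between the light conditions passed (interaction adjusted p = 0.024). The list, SEN1 included, summed in WL to 376.93 to 380.17 FPKM in dvl1-1D and 250.98 to 305.28 FPKM in Col-0. Its median was 0.16 in WL and −0.40 in low R:FR. There 4 of the 12 were lower and 1 was higher, where 4.11% and 6.15% of all tested genes were. The interaction passed for 3, against 2.69% of all tested genes.

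None of 14 root, 8 stomatal, 7 trichome or 4 meristem and boundary markers passed. All 8 stomatal markers were nevertheless fitted above 0, with log2 fold changes of 0.11 to 0.70 and a median of 0.30, and their sums did not overlap, at 69.74 to 75.63 FPKM in dvl1-1D and 61 to 63.46 FPKM in Col-0. The part of this shift in other results was not tested. The 8 tested vascular markers held 2 lower genes, against 2.18% of all tested genes. They were XCP1, which lies in the run on chromosome 4, and SWEET12, a phloem sucrose exporter. SWEET12 had 31.03, 24.58 and 19.1 FPKM in dvl1-1D and 46.7, 44.04 and 41.04 FPKM in Col-0. The summed level of the 9 vascular markers was 259.75 to 294.47 FPKM in dvl1-1D and 315.66 to 347.76 FPKM in Col-0, and its part in other results was not tested. This sum includes XCP1, which in WL averaged 24.7 FPKM in dvl1-1D, 27.7 in bsk36, 24.4 in pif47 and 55.4 in Col-0. The median log2 fold change of the 8 tested markers was −0.03, with 7 fitted below 0 and 1 above. In whole seedlings, fewer cells of a type and less RNA per cell cannot be told apart. Of 22 light-harvesting and RBCS genes LHCB4.3 was higher and LHCB1.1 lower, and of 7 phosphate deficiency genes SQD2 was lower, all 3 with calls that were lost without dvl1-1D replicate 2.

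The low R:FR difference rests on libraries whose means do not enter the WL difference, although all 24 libraries share the estimate of the spread. Of the 552 genes higher in WL, 121 were also higher in low R:FR (21.9% of the WL genes and 10.3% of the 1179 higher in low R:FR), where 6.15% of all tested genes were higher, and 13 were lower. Of the 418 genes lower in WL, 139 were also lower in low R:FR (33.3% of the WL genes and 17.6% of the 788 lower in low R:FR), where 4.11% of all tested genes were lower, and 7 were higher. Without dvl1-1D replicate 2 these shared genes numbered 69 and 88. Among the genes at 2-fold in WL, 25 of 51 and 33 of 62 kept their call and direction. The run on chromosome 4, where Col-0 stood apart from all 3 mutants, holds 17 of the 139 shared lower genes and 9 of these 33. The interaction passed for 515 of all tested genes (2.69%) and for 167 of the 970 changed in WL (17.2%), a share raised by the selection on the WL contrast, which enters the interaction. Over all tested genes the interaction count was 159 without dvl1-1D replicate 2, 193 without dvl1-1D replicate 3 and 189 without Col-0 replicate 1.

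**Figure D5:**
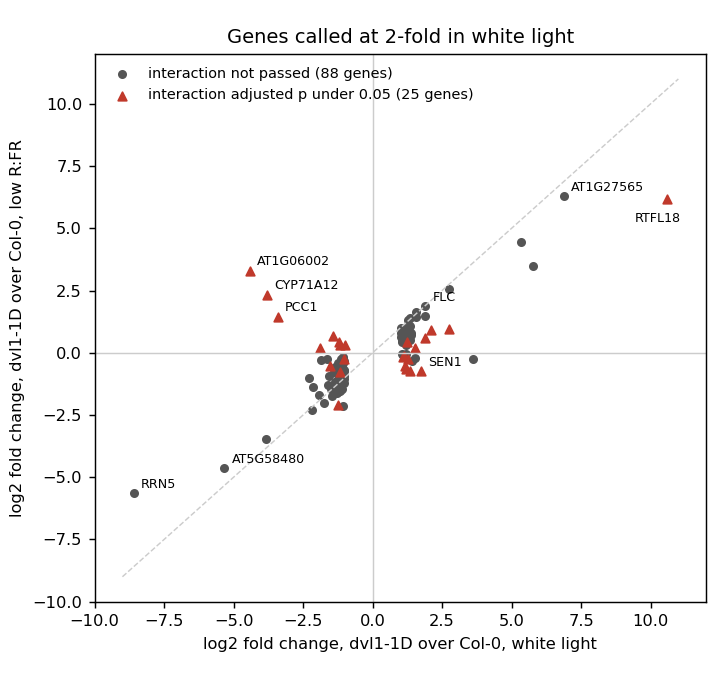
Log2 fold change of dvl1-1D over Col-0, on log2(FPKM + 0.1), in WL (x axis) and in low R:FR (y axis) for the 113 genes called at 2-fold in WL, with red triangles for the 25 whose interaction passed and a dashed line of equal change. FLC lies on the line at 1.89 and 1.86, and RTFL18 lies below it at 10.60 and 6.19.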

How the data were processed

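The members and lists were chosen with earlier results of these data known. Expression values are FPKM as the authors deposited them, with 2 decimals, for 32833 genes in 24 libraries of 8 groups. The submitters' processing notes name fastp, cutadapt, HISAT2, DESeq2 and the TAIR10 build. The counting tool and its strand setting are not given in the sources used here, so overlapping and antisense genes may share reads. The libraries were made from poly(A) RNA. The 8 columns of the authors' group means were not used. Names and gene order come from RefSeq (TAIR10.1), whose coordinates are not given.

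FPKM are not counts, so log2(FPKM + 0.1) of all 24 libraries was fitted with a mean for each group in limma 3.58.1 (R 4.3.3), with a trend in the eBayes step. Genes with a mean of at least 1 FPKM over the 6 libraries were tested. A gene is called changed where its p, adjusted by Benjamini-Hochberg across the 19164 genes, is under 0.05. It is called at 2-fold where its log2 fold change is also 1 or more in size. Fold changes are on the log2(FPKM + 0.1) scale and understate those of low genes. The interaction is the effect in WL minus that in low R:FR. The fit was tested on simulated data.

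Named were RTFL18, its family and its 5 neighbours on either side, the 12 largest rises and 12 largest falls at 2-fold without overlap and with a mean of at least 2 FPKM in the higher group, up to 4 changed genes per list and direction (the flowering-time list was drawn up after values were seen), and genes at 0 in one group and at 2 FPKM or more in each library of the other. The antisense RNA AT4G07975, at 0 in Col-0, met the last rule without passing the test. Promoter motifs and sequences were not analysed here. Alternatives covered the pseudocount, filter, scaling, trend, replicate block, the 6 libraries alone and each library left out.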

Additional observations from a re-analysis of the deposited data

Results flagged for a closer look

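Each of these genes was singled out because its dvl1-1D effect differed between the light conditions, by the interaction term of the limma fit (WL effect minus low R:FR effect, log2 scale, 3 libraries in each of 4 groups). At this threshold 515 of all tested genes (2.69%) passed. With a library left out, only the total number of interaction calls was followed, not the calls of single genes. The genes given here are a chosen part of these and not a full account of the lists examined in the text. The interaction passed for 8 sulfur deficiency, 5 XTH and 3 sugar starvation genes, for instance, and only some of these are given.

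RTFL18 itself had a difference of 4.41 (adjusted p = 0.00489), with Col-0 near 0 in WL and above 11 FPKM in low R:FR. Among the most changed genes the difference was 1.78 for PEX3 (adjusted p = 0.0224), 1.21 for SRF4 (adjusted p = 0.0138), 1.303 for AT2G07042 (adjusted p = 0.0488) and 2.50 for SEN1 (adjusted p = 0.024), all with the larger value in WL. It was −7.72 for AT1G06002 (adjusted p = 0.0256), −6.12 for CYP71A12 (adjusted p = 0.0404), −4.86 for PCC1 (adjusted p = 0.0175) and −2.08 for AT3G22235 (adjusted p = 0.0259), genes lower in dvl1-1D in WL and fitted above 0 in low R:FR. None of these genes passed the test in low R:FR. CYP71A12 had 0.19, 8.49 and 0.88 FPKM there in dvl1-1D and 0.27, 0.11 and 0.15 FPKM in Col-0, with 1 dvl1-1D library far above the rest.

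For the clock genes the difference was 1.07 for CCA1 (adjusted p = 0.0024), 1.33 for LHY (adjusted p = 0.00114), 1.07 for RVE8 (adjusted p = 0.00488), 0.79 for RVE4 (adjusted p = 0.0159) and 1.19 for PRR9 (adjusted p = 0.00626). It was 0.82 for PRR7 (adjusted p = 0.0307), 0.66 for LNK1 (adjusted p = 0.0113), 1.32 for LNK2 (adjusted p = 0.00544) and 0.92 for LNK3 (adjusted p = 0.0224). All 9 had the higher value in WL.

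Wall genes gave 1.51 for TCH4 (adjusted p = 0.00234), 1.38 for XTH26 (adjusted p = 0.0309), 1.31 for XTH24 (adjusted p = 0.0228) and 1.28 for EXT12 (adjusted p = 0.0488), and with the opposite sign −0.62 for XTH7 (adjusted p = 0.0032) and −0.35 for EXP3 (adjusted p = 0.0475). The jasmonate genes gave −0.56 for AOS (adjusted p = 0.011) and −2.30 for LOX2 (adjusted p = 0.0224). The remaining values were −0.56 for APR2 (adjusted p = 0.0258), −0.87 for SWEET12 (adjusted p = 0.0198) and 0.54 for CDF3 (adjusted p = 0.0136), and −0.40 for IDH1 (adjusted p = 0.0286), a gene of the run on chromosome 4 that was lower in both light conditions.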

How the results depend on the processing

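RTFL18 was called under all alternatives run, with log2 fold changes of 8.68 to 11.19. With the 6 WL libraries alone, 138 genes were higher and 206 lower, and with median-ratio scaling 665 were lower. Genes higher at 2-fold numbered 29 with a pseudocount of 1, 88 without the filter and 19 with a mean of at least 5 FPKM. Genes lower at 2-fold numbered 34 with that pseudocount and 23 with that mean. With 1 WL library left out, higher genes numbered 235 to 495, lower genes 207 to 341, genes higher in both lights 69 to 106, genes lower in both 88 to 134, and interaction calls 159 to 614. The replicate numbers do not pair the samples (correlations of deviations 0.0169, 0.0436 and 0.0213). With the replicate block, 567 genes were higher and 396 lower, and 883 of these 963 were also called without it. Removing the chromosome 4 run, an alternative chosen after seeing the data, left 941 changed genes. The share of changed genes that were higher, 56.9%, was 41.2% with median-ratio scaling, 40.1% with the 6 libraries alone and 43.3% without Col-0 replicate 1. The block also ended the calls of AT1G06002, CYP71A12, RGA and RVE4. The cause of these shifts was not tested. FPKM keep no read number, so depth sets no stated limit here.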

Other observations

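The highest median over 15 consecutive tested genes also lay on chromosome 4, from AT4G22460 to AT4G22560, a window picked out after its values were seen. The median log2 fold change of dvl1-1D over Col-0 was 0.53 in WL and 0.66 in low R:FR. In WL 3 of the 15 genes were higher, against 2.88% of all tested genes, and none was lower. In low R:FR 7 were higher, against 6.15%. AT4G22490 had 156.57, 240.66 and 225.55 FPKM in dvl1-1D and 118.98, 86.83 and 96.22 FPKM in Col-0. Its bsk36 and pif47 libraries, at 116.91 to 171.21 and 132.41 to 159.96 FPKM in WL, overlapped those of dvl1-1D. The other mutants were mixed over the window. AT4G22505 averaged 131.1 FPKM in dvl1-1D, 131.7 in bsk36, 130.2 in pif47 and 85.6 in Col-0. AT4G22520 averaged 71.5 FPKM in dvl1-1D, 30.7 in bsk36, 44.8 in pif47 and 39.3 in Col-0. Several genes of the window, AT4G22490 included, are annotated to the same lipid-transfer protein superfamily, and how reads were divided among related genes is not given in the sources used here.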
